A study of Mus musculus with 6 samples.

Results

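The Ikaros family comprises 5 genes, Ikzf1 to Ikzf5, which encode the zinc finger transcription factors Ikaros, Helios, Aiolos, Eos and Pegasus. They were examined in resting CD8+ T cells (CD8-TC) taken fresh from the spleens of WT and Runx3-/- mice. Members were the probe sets whose platform gene symbol was Ikzf1, Ikzf2, Ikzf3, Ikzf4 or Ikzf5, with the brightest probe set representing a gene. All 5 were measured, out of 19938 genes with a probe set of their own. All 5 were among the 9924 genes tested, which had a signal at or above the array's median in at least 1 of the 6 arrays. Ikzf4 met this only through the Runx3-/- arrays.

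Transcript levels came from Affymetrix mouse gene ST 1.0 arrays as log2 RMA signal, RMA being a normalization that makes arrays comparable. Both groups were male mice of the outbred ICR stock, 6 weeks old, and 3 arrays of Runx3 +/+ (WT) and 3 of Runx3-/- cells were made from biological repeats. Whether a repeat was 1 mouse or several is not stated in these sources. The labels give Runx3-/- as the genotype of the animals and name no tissue-restricted deletion, and the cells were not activated. Per the methods, WT CD8-TC were taken with anti-CD8 magnetic beads, whereas Runx3-/- cells were in addition sorted to remove dendritic cells that carried CD8 and CD11c. Another label mentions sorting for every sample. If only Runx3-/- cells were sorted, genotype and sorting cannot be told apart in these arrays.

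Ikaros factors bind DNA through zinc fingers near one end of the protein and pair with each other through fingers at the other end. They recruit histone deacetylase and chromatin remodelling complexes, chiefly NuRD, and silence or sustain lymphoid genes. Ikaros is needed for the formation of lymphocytes, Aiolos is known for its role in B and T cell maturation, and Helios and Eos are best known in Foxp3+ regulatory T cells. Pegasus is the most distant and least studied member. Runx3 is the Runx factor that silences Cd4 in cells of the CD8 lineage, and the comparison asked how the level of each Ikaros family transcript differed when Runx3 was missing.

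Facts of the whole series bear on these values. The Runx3 probe set (10509030), the targeted gene, read 7.09, 7.30 and 6.99 in WT against 7.06, 7.17 and 7.64 in Runx3-/- arrays, so that it did not separate the genotypes. Where it lies relative to the deleted part was not known here, and its level therefore does not check the labels. Cd4 did separate them, at 4.13 to 4.42 in WT and 6.67 to 6.91 in Runx3-/- arrays. The labelled cell type was checked with T cell markers. Cd3g, Cd8a and Cd8b1, the brightest of the 11 measured, had mean levels of 11.20, 11.10 and 10.70 in WT and 11.38, 11.06 and 10.56 in Runx3-/- arrays, and 0 of the 11 were below the array median in all arrays. Across tested genes, the lowest correlation within a genotype was 0.985 and the highest between genotypes 0.971.

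Helios was the member that passed the test. Ikzf2 was 1.80-fold higher in Runx3-/- than in WT CD8-TC, whereas Ikzf1, Ikzf3, Ikzf4 and Ikzf5 had smaller positive differences that did not pass the test. Thus 1 of 5 members rose and 0 fell at a limma adjusted p under 0.05. Over all 9924 genes tested, 11.6% passed, 5.63% higher and 6% lower in Runx3-/- CD8-TC. This split of 559 higher and 595 lower depended on the scaling, since with each array centred on its T cell markers it was 167 higher and 1524 lower. All 5 differences were above 0, as were 51.1% of all tested genes, but the signs of Ikzf1 and Ikzf5 turned when each array was centred on its T cell markers. At a change of 1.5-fold with an unadjusted p under 0.05, the thresholds named in the methods, 1 member was called, again Ikzf2, against 8.07% of tested genes called by that rule in either direction and 3.12% called higher.

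**Figure D1:**
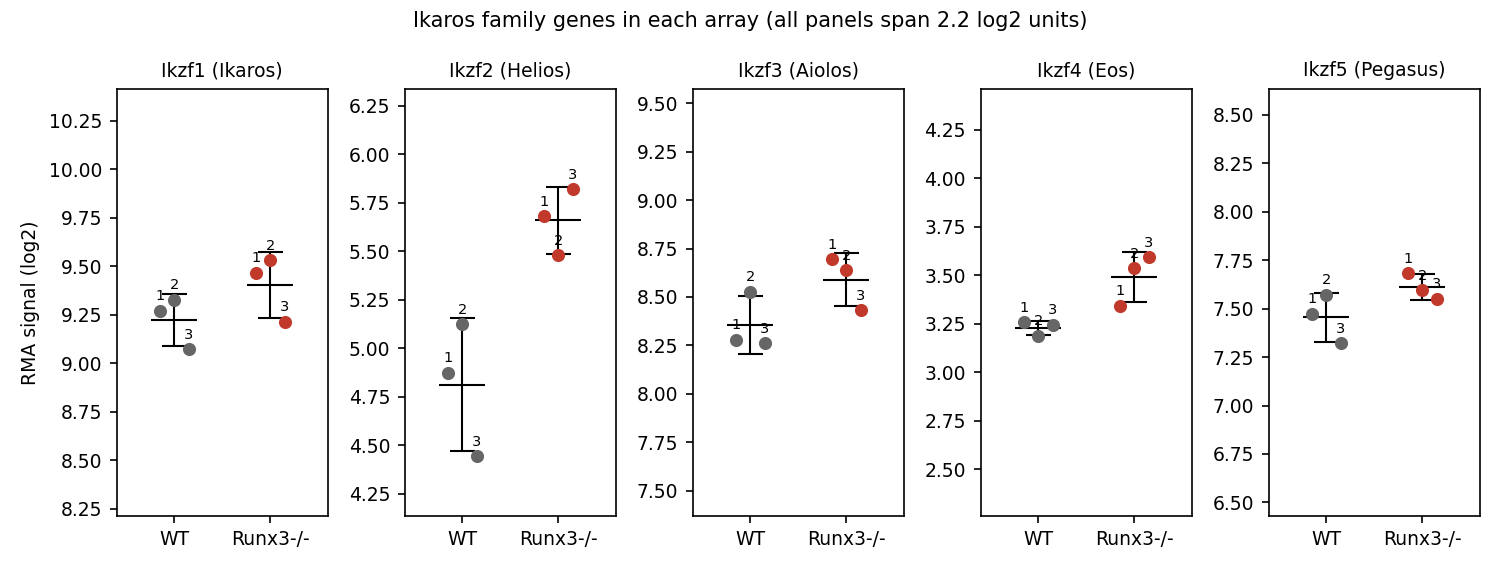
Log2 RMA signal (vertical axis) of each Ikaros family gene in 3 WT (grey) and 3 Runx3-/- (red) arrays, numbered by replicate, with horizontal bars for the mean and whiskers for the SD (n = 3). All panels cover the same span, and only Ikzf2 and Ikzf4 have groups that do not overlap, with Ikzf4 lying near 3.23 and 3.49, close to the array medians.

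Ikzf2, which encodes Helios, was read by 1 probe set (10355312). Its signal was 4.87, 5.12 and 4.44 in WT and 5.68, 5.48 and 5.82 in Runx3-/- arrays. Every Runx3-/- array was above every WT array, and WT replicate 3 was the lowest of all. The mean was 4.81 ± 0.34 in WT and 5.66 ± 0.17 in Runx3-/- CD8-TC (SD, n = 3), that is, 1.32 and 2.15 above the array median on the log2 scale. The difference was 0.85 ± 0.17 (SE), with a 95% interval of the fold from 1.37 to 2.37 (limma adjusted p = 0.0184). Among the 559 genes that rose, Ikzf2 ranked 111 by the size of the difference. In bulk samples, a change in the share of cells that express a gene and a change in its RNA per cell cannot be told apart.

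The Ikzf2 call did not hold in every setting. Without WT replicate 1 the limma adjusted p was 0.0514, and without Runx3-/- replicate 3 it was 0.0721, while the difference stayed between 0.66 and 1.003 with any 1 array left out. Centred on T cell markers, the difference was 0.63 (limma adjusted p = 0.0278). Without limma's moderation of variances the adjusted p was 0.148.

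**Figure D2:**
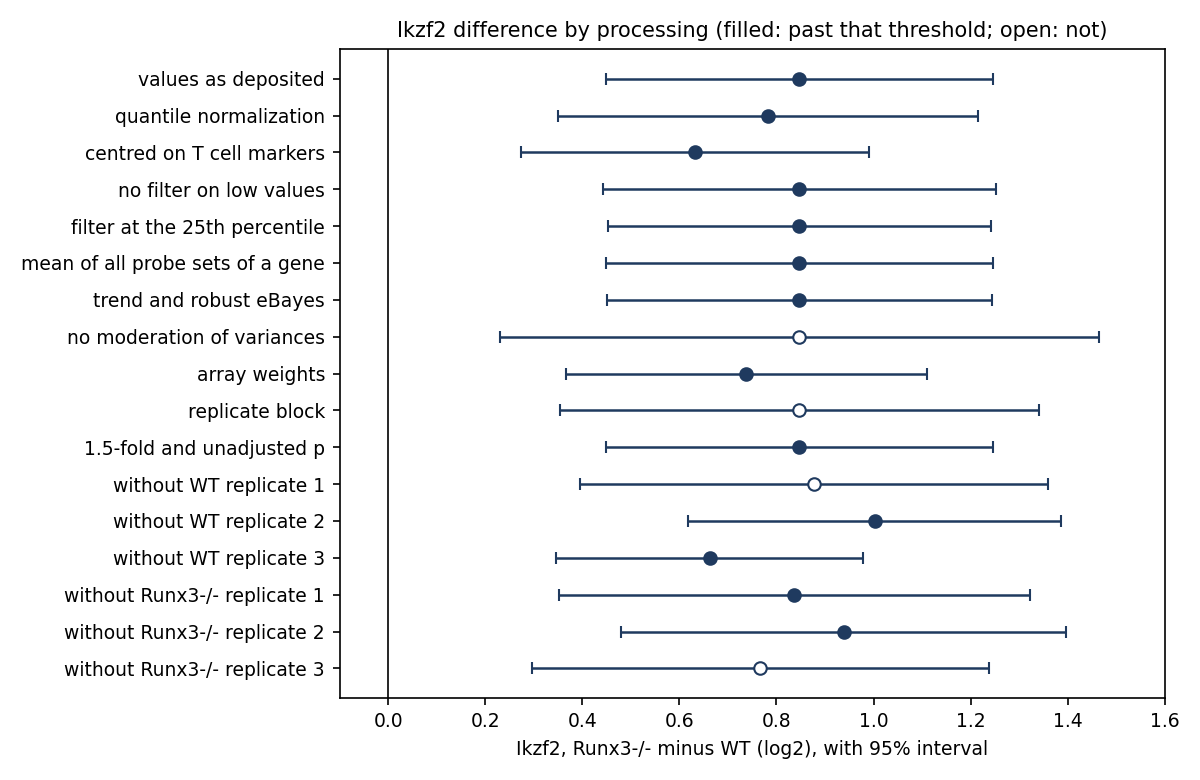
Difference of Ikzf2 between Runx3-/- and WT arrays (horizontal axis, log2, points) with its 95% interval (bars) for the values as deposited and 16 alternatives (vertical axis). All intervals lie above 0, with centres from 0.63 to 1.003, and the 4 open symbols mark settings in which the adjusted p was not under 0.05.

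Ikzf1 encodes Ikaros, the founding member. Its probe set (10374333) read 9.27, 9.33 and 9.07 in WT against 9.47, 9.53 and 9.21 in Runx3-/- arrays. The groups overlapped, since Runx3-/- replicate 3 lay below WT replicates 1 and 2. The difference was 0.18 ± 0.12 (SE), and its 95% interval ran from -0.091 to 0.45 (adjusted p = 0.366 in limma). It was -0.035 when arrays were centred on T cell markers. An increase of more than 1.37-fold lay outside the interval.

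The stretch before an Ikzf1 start site is shown because it was the member window that held a RUNX motif, the sequence bound by Runx factors. RefSeq (GRCm38.p6) gave 3 windows for 2 of the 5 members, Ikzf1 and Ikzf5. Each was taken as the 250 bases before the start. The letters searched on both strands were TGTGGT, the variant form TGTGGC, the further variant TGCGGT and, as the last form, TGCGGC. A match stood 118 bases before one Ikzf1 start, and 0 matches stood before the other Ikzf1 start and the Ikzf5 start. Of all 32851 windows, 38% held at least 1 of these letters and 9.47% held TGCGGC. The window lies at chr11:11685675-11685924 on the plus strand and is written from 5′ to 3′ with the match in capitals.
Ikzf1: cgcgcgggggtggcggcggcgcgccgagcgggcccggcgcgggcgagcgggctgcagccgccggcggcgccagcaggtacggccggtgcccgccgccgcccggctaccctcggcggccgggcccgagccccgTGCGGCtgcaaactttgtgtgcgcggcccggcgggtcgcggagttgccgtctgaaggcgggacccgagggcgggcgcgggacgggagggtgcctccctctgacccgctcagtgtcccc
The match is a description of the letters, and binding was not measured in these arrays. The window is 82% G or C, against 47.6% for the other Ikzf1 window and 64% for that of Ikzf5.

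Ikzf3, which encodes Aiolos, is used by both B cells and T cells. Its probe set (10390640) read 8.28, 8.53 and 8.26 in WT against 8.69, 8.64 and 8.43 in Runx3-/- arrays. Runx3-/- replicate 3 lay below WT replicate 2, and the other arrays of the 2 genotypes did not cross. The difference was 0.23 ± 0.11 (SE), with a 95% interval from -0.031 to 0.49, and did not pass (limma adjusted p = 0.234). It was 0.017 when arrays were centred on T cell markers.

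B cell markers moved in these arrays while Ikzf1 and Ikzf3 did not pass the test. Of 14 B cell markers measured, 13 fell and 0 rose, with a median difference of -2.28, and their summed signal (unlogged) ran from 1300.4 to 2015 in WT and from 291 to 356 in Runx3-/- arrays. Among all tested genes, 6% fell. None of the 14 markers was below the array median in all arrays, though Fcer2a and Ebf1 reached it only in WT arrays. The brightest, Cd79b, Cd79a and Ms4a1, fell by 2.29, 3.20 and 2.87 on the log2 scale. The part of B cell RNA in the levels of Ikzf1 and Ikzf3 was not tested.

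Ikzf4 encodes Eos, a partner of Foxp3 in regulatory T cells. Its probe set (10373502) read 3.26, 3.19 and 3.24 in WT against 3.34, 3.53 and 3.59 in Runx3-/- arrays. The groups did not overlap, although all values were near the array medians, which ran from 3.45 to 3.53. It reached the median in 0 of 3 WT and 2 of 3 Runx3-/- arrays, so that it was tested only because of the group in which it was higher. The difference was 0.26 ± 0.10 (SE), with an unadjusted p of 0.0276 and an adjusted p of 0.126 in limma. Without any filter on signal the adjusted p was 0.122, and centred on T cell markers the difference was 0.046. The deposited values hold no detection call, so whether this signal was above background was not known.

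Ikzf5, which encodes Pegasus, was read by 2 probe sets. The brighter (10497996) read 7.47, 7.57 and 7.32 in WT against 7.68, 7.60 and 7.55 in Runx3-/- arrays, with groups that overlapped between WT replicate 2 and Runx3-/- replicate 3. The difference was 0.15 ± 0.10 (SE) and did not pass (limma adjusted p = 0.359). The dimmer (10568529) read 7.17, 7.10 and 6.84 in WT against 7.12, 7.24 and 7.07 in Runx3-/- arrays. Its difference was 0.10 ± 0.11 (SE), with an adjusted p of 0.6 in limma when it stood for the gene, an alternative added after the values were seen. Neither probe set separated the genotypes, and with arrays centred on T cell markers the brighter gave -0.062.

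The Ikzf5 probe sets differed in the genes beside them in identifier order. Of the 10 nearest probe sets with 1 gene to the brighter one, 0 belonged to genes on the chromosome of Ikzf5 in RefSeq, and the closest were Pabpc4l and 1700018B24Rik. For the dimmer one it was 10 of 10, with 2310057M21Rik and Cpxm2 as the closest. For the other 4 members, 8 to 10 of 10 lay on the member's own chromosome. The platform annotation pairs both probe sets with Ikzf5, and signal from a similar sequence elsewhere cannot be told apart from that of Ikzf5 here.

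Thus 2 of 5 members, Ikzf2 and Ikzf4, had groups that did not overlap, with Runx3-/- higher. Over all tested genes, 17.4% did not overlap with Runx3-/- higher, and 33.6% in either direction. The log ratio of 2 members within an array was used to ask whether they changed unequally. The ratio of Ikzf2 to Ikzf3, Ikzf4 and Ikzf5 was higher by 0.62, 0.59 and 0.69 on the log2 scale in Runx3-/- arrays, and the ratio of Ikzf1 to Ikzf2 changed by -0.67. Groups did not overlap in any of these 4 ratios, all of which hold Ikzf2. For Ikzf2 to Ikzf4 the gap was narrow, from 1.937 in WT replicate 2 to 1.946 in Runx3-/- replicate 2. Each of the 4 had a two-sided exact permutation p of 0.1, the smallest that 3 against 3 arrays allow. The adjusted p was 0.25 over the 10 pairs. The other 6 ratios changed by between -0.081 and 0.11, with overlapping groups. A shift of all values of an array, such as centring on T cell markers, leaves these ratios as they are.

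**Figure D3:**
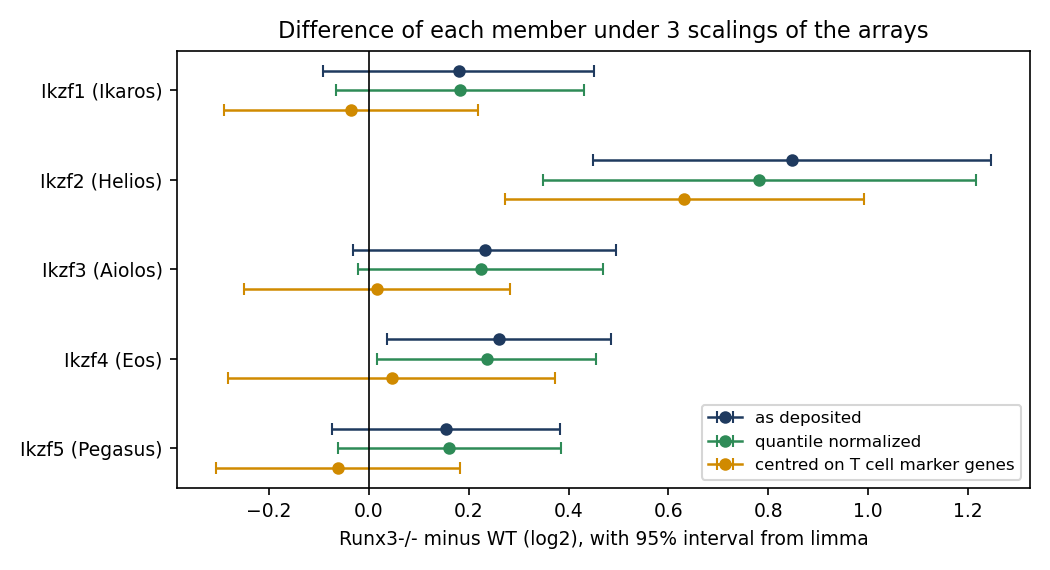
Difference between Runx3-/- and WT arrays (horizontal axis, log2) of each member (vertical axis), with 95% intervals from limma, for the values as deposited, after quantile normalization and with each array centred on the mean of its T cell markers. Ikzf2 stays above 0 at 0.85, 0.78 and 0.63, whereas the centring moves Ikzf1 and Ikzf5 below 0.

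The scaling by T cell markers bears on these signs. Of 11 tested, 3 rose, namely Cd247, Lat and Zap70 (chosen after their values were seen), beside 5.63% of all tested genes. Of the 11, 0 fell, and their median was 0.19. Their summed signal ran from 9111 to 10845 in WT and from 10129 to 11890 in Runx3-/- arrays. Centring on their mean lowered all differences by 0.22, and the median of all tested genes from 0.0062 to -0.21. Relative to that median, differences were as before.

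The pattern of Ikzf2 over the 6 arrays was set against 9919 other tested genes by the root mean square distance between profiles from which each gene's mean had been subtracted. The nearest were Trim34a at 0.13, Lmbr1l at 0.13 and Rhoh at 0.15 on the log2 scale. Trim34a, a member of the tripartite motif family, read 5.34, 5.52 and 5.15 in WT against 6.16, 6.17 and 6.53 in Runx3-/- arrays. Lmbr1l, which encodes a membrane receptor, read 6.51, 6.77 and 6.15 in WT against 7.03, 7.19 and 7.31 in Runx3-/- arrays. Rhoh, an atypical small GTPase of T cell receptor signalling, read 8.09, 8.11 and 7.70 in WT against 8.58, 8.56 and 8.70 in Runx3-/- arrays. As with Ikzf2, WT replicate 3 was the lowest and Runx3-/- replicate 3 the highest array for all of these genes. They were chosen for nearness to the same 6 values, so that this likeness follows from the choice.

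Helios and Eos are best known from regulatory T cells, and genes of those cells were therefore set beside them. Foxp3, the defining factor, read 3.39, 3.25 and 3.29 in WT against 5.05, 5.001 and 5.43 in Runx3-/- arrays. Its WT values were below the array medians, and the difference was 1.85 ± 0.13 (SE, limma adjusted p = 0.000104). Il2ra, a chain of the IL-2 receptor, read 3.24 to 3.47 in WT and 5.35 to 5.86 in Runx3-/- arrays, and the inhibitory receptor Ctla4 read 3.17 to 3.46 and 5.80 to 6.62. Izumo1r, the surface folate receptor FR4, read 4.48, 4.53 and 3.68 in WT against 7.33, 6.87 and 7.09 in Runx3-/- arrays.

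Of 12 regulatory T cell genes tested, 7 rose, 1 fell and 4 did not pass, and their median difference was 1.01 beside 0.0062 over all tested genes, of which 11.6% passed. Foxp3, Il2ra and Ctla4 were at or above the array median in 0 of 3 WT and 3 of 3 Runx3-/- arrays, so that they entered the count and the median only through the group in which they were high. Without any filter on signal the number that rose was 7 as well, but the set was not the same. Gpr83 did not pass there (limma adjusted p = 0.0658). Besides the genes above, Tnfrsf18, Tnfrsf4 and Gpr83 rose by 0.91, 1.102 and 2.14 on the log2 scale (chosen after their values were seen). Gpr83 read 3.81 in WT replicate 3 against 5.75 and 6.07 in the other WT arrays, and its difference was 1.44 without that array. Its call was lost without Runx3-/- replicate 1, 2 or 3 (limma adjusted p from 0.0713 to 0.0926). It was also lost with a trended and robust variance model (0.0636) and without moderation of variances (0.198). The call of Tnfrsf4 was lost without Runx3-/- replicate 3 (0.0555) and without moderation of variances (0.139). The number that rose was 5 without Runx3-/- replicate 3. The gene that fell, by 2.61, was Itgae, for the CD103 integrin subunit, which CD8-TC also express. The summed signal of the 13 genes measured ran from 597 to 731 in WT and from 881 to 1041 in Runx3-/- arrays. The part of regulatory T cell genes in the rise of Ikzf2 was not tested.

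**Figure D4:**
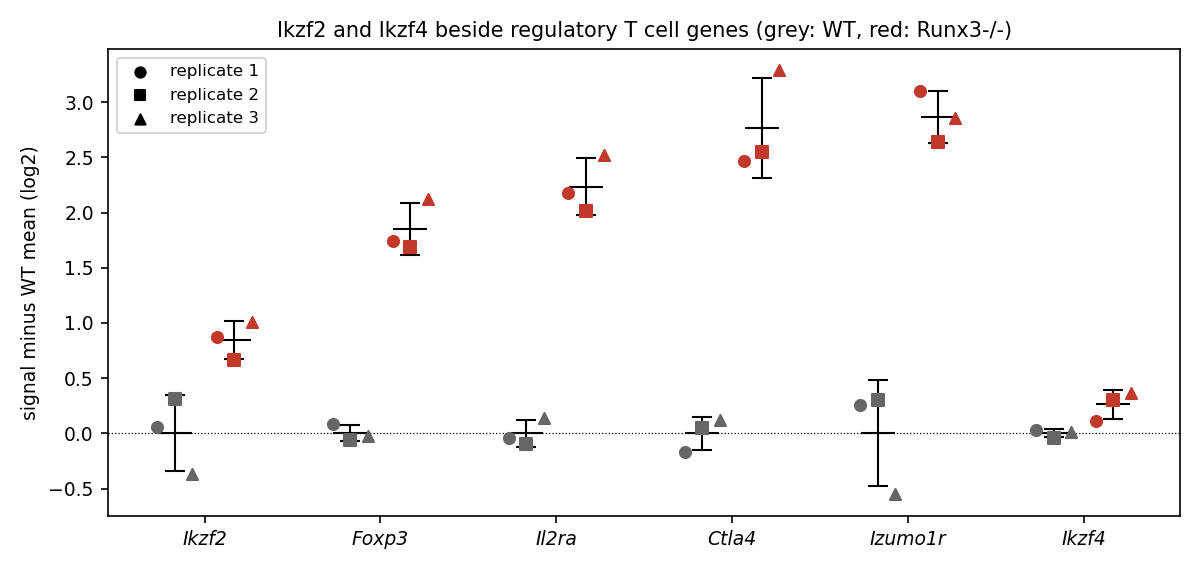
Signal minus the gene's WT mean (vertical axis, log2) of Ikzf2, 4 regulatory T cell genes that rose and Ikzf4 (horizontal axis). Other genes of that list are not shown, among them Itgae, which fell (-2.61), and those that did not pass. Grey points are WT and red points Runx3-/- arrays, with a symbol for each replicate and the mean and SD of n = 3. The difference of 0.85 for Ikzf2 lies between those of Ikzf4 (0.26) and Foxp3 (1.85).

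Ikaros factors act with corepressors, and most genes of these complexes did not pass the test. Of 17 genes tested, 2 rose, 1 fell and 14 did not pass, beside the 11.6% that passed among all tested genes. Their median was -0.0037. Hdac1, a deacetylase of NuRD and Sin3 complexes, read 9.15, 9.06 and 8.99 in WT against 9.63, 9.55 and 9.48 in Runx3-/- arrays and rose by 0.49 ± 0.09 (SE, limma adjusted p = 0.0137). Chd3, a NuRD remodeller also called Mi-2 alpha, read 7.60, 7.53 and 7.29 in WT against 8.40, 7.93 and 7.99 in Runx3-/- arrays and rose by 0.64 ± 0.14 (adjusted p = 0.0275 in limma). Gatad2a, a structural subunit of NuRD, read 7.08, 7.13 and 7.06 in WT against 6.77, 6.76 and 6.54 in Runx3-/- arrays and fell by 0.40 ± 0.10 (adjusted p = 0.0357 in limma). Groups did not overlap for these 3 genes.

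These calls differed in how they held. Chd3 missed the threshold when any 1 array other than Runx3-/- replicate 2 was left out (limma adjusted p from 0.0525 to 0.0607), and Gatad2a did so whichever of the 6 arrays was left out (0.0529 to 0.0999). Hdac1 passed whichever array was left out but not when arrays were centred on T cell markers (0.27, adjusted p = 0.111). Without limma's moderation of variances the adjusted p was 0.061 for Hdac1, 0.154 for Chd3 and 0.105 for Gatad2a. Hdac1 and Gatad2a also stayed under the 1.5-fold change named in the methods. Hdac2 and Chd4, the partner paralogues of Hdac1 and Chd3, gave -0.13 and 0.12 and did not pass. The Eos cofactor gene Ctbp1 (these 3 chosen after their values were seen) gave -0.011, and Ctbp2 was below the filter.

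Of 10 genes for the phosphorylation and turnover of Ikaros proteins, 1 rose, 0 fell and 9 did not pass. Their median was -0.033. Over all tested genes, 11.6% passed and 5.63% were called higher. The gene of this list that rose was Crbn. It encodes cereblon, the substrate receptor through which thalidomide analogues direct Ikaros and Aiolos to degradation. Crbn read 7.49, 7.10 and 7.36 in WT against 7.96, 7.99 and 8.05 in Runx3-/- arrays, with no overlap. The difference was 0.68 ± 0.11 (SE, limma adjusted p = 0.00784), and 0.47 with arrays centred on T cell markers (adjusted p = 0.0619). Without limma's moderation of variances the adjusted p of Crbn was 0.0843. Rbx1, a RING subunit of the cereblon ligase, gave -0.17, and Ppp1cb, a catalytic subunit of the phosphatase PP1, gave -0.11, and neither passed. The remaining genes, which included other ligase subunits and the kinase CK2, did not pass either.

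Ikaros restrains Notch target genes in developing T cells. Of 7 Notch pathway genes tested, 2 fell, 0 rose and 5 did not pass, beside the 11.6% that passed among all tested genes. Their median was -0.34, the value of Nrarp, beside 0.0062 over all tested genes. Nrarp (chosen after its values were seen) reached the array median in 1 WT and 0 Runx3-/- arrays, and Hes5 in 0 and 1. Both thus entered the count and the median only through the group in which they were higher. The receptor gene Notch2 read 7.55, 7.78 and 7.50 in WT against 6.96, 6.96 and 6.97 in Runx3-/- arrays and fell by 0.65 ± 0.10 (SE, limma adjusted p = 0.00565). Without limma's moderation of variances the adjusted p of Notch2 was 0.0624. Hes1, a target of Notch signalling, read 4.28, 4.12 and 4.24 in WT against 3.86, 3.29 and 3.67 in Runx3-/- arrays and fell by 0.61 ± 0.15 (adjusted p = 0.0348 in limma), a call lost when any 1 array other than Runx3-/- replicate 1 was left out (0.0617 to 0.108). Rbpj, the DNA-binding partner of Notch, gave -0.35 and did not pass (adjusted p = 0.0505). Differences of the opposite sign were also present. The receptor gene Notch1 read 7.60, 7.74 and 7.68 in WT against 8.20, 7.92 and 7.86 in Runx3-/- arrays, without overlap, and its difference of 0.32 did not pass (adjusted p = 0.105 in limma). Dtx1 and Hes5 each gave 0.15 and did not pass (these genes chosen after their values were seen). Notch2 is also used by B cells and splenic dendritic cells, and B cell markers fell in these arrays, with a median of -2.28. Their part in the fall of Notch2 was not tested.

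Genes described as targets of Ikaros family factors in lymphocytes gave 2 rises, 1 fall and 9 that did not pass among 12 tested, with a median of 0.089. Over all tested genes, 11.6% passed, 5.63% higher and 6% lower, with a median of 0.0062. Besides Cd4, which rose by 2.57, Gata3, a factor of helper T cells, read 6.07, 5.99 and 5.83 in WT against 6.86, 6.47 and 6.36 in Runx3-/- arrays and rose by 0.60 ± 0.14 (SE, limma adjusted p = 0.0319). This call was lost when any 1 array other than Runx3-/- replicate 3 was left out (0.0569 to 0.0719) and with arrays centred on T cell markers (0.0616). Blnk, a B cell adaptor that is also on the B cell list, fell by 1.94, as did most B cell markers. Il2, Il10, Dntt, Rag1, Rag2 and Igll1 were below the filter on signal and not tested. Ifng and Vpreb1 (chosen after their values were seen) each reached the array median in 0 WT arrays and 1 Runx3-/- array. These 2 genes thus entered the count and the median only through the group in which they were higher.

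**Figure D5:**
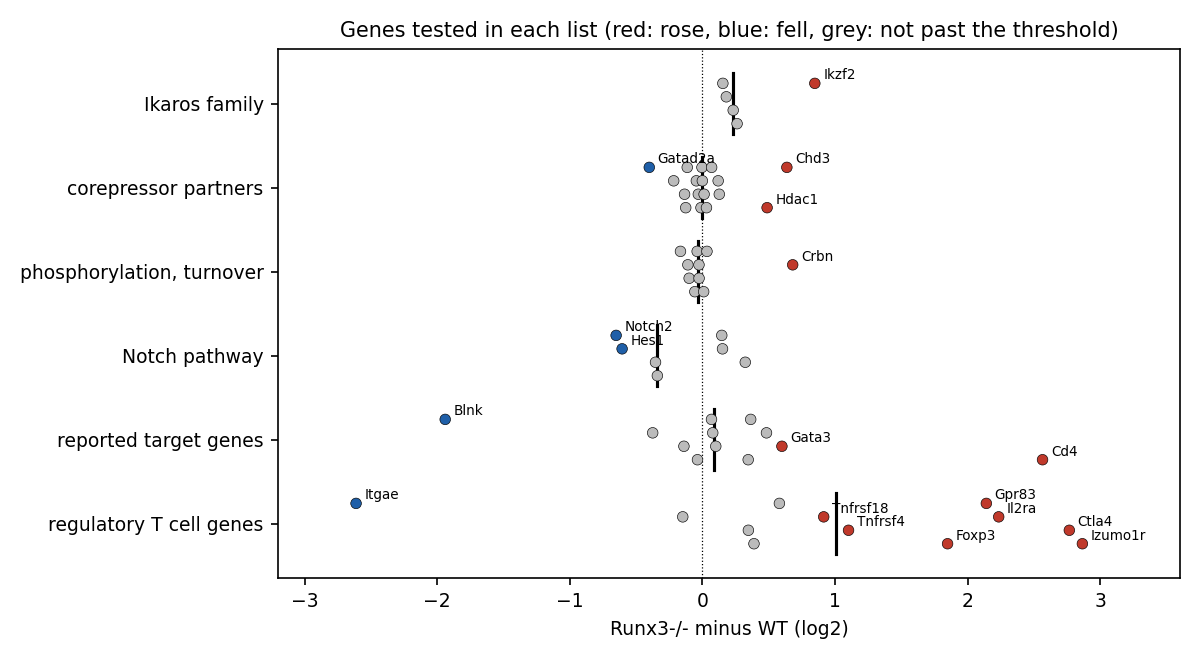
Difference between Runx3-/- and WT arrays (horizontal axis, log2) of each tested gene (points) in 6 gene lists (vertical axis), with a vertical bar at the list's median. Genes that rose are red, genes that fell are blue, and grey points did not pass the test. Ikzf2 stands at 0.85, above the family's median of 0.23, and centring on T cell markers turned the signs of Ikzf1 and Ikzf5.

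Markers of other cells that these samples could hold were mostly lower in Runx3-/- arrays. Among all tested genes, 6% were called lower and 5.63% higher. All 14 macrophage markers fell, with a median of -2.63 and a summed signal of 2805 to 2901 in WT and 316 to 558 in Runx3-/- arrays, led in brightness by Slc40a1, Lyz2 and Vcam1. Of 6 erythroid markers tested, 5 fell, with Car2, Alas2 and Slc4a1 as the brightest, and 1, Gata1 (chosen after its values were seen), rose. Of 9 conventional dendritic cell markers, Wdfy4 and Ly75 fell, while Irf8 gave -0.85 and did not pass. Of 7 plasmacytoid dendritic cell markers, 1 fell (Spib, chosen after its values were seen, also on the B cell list) and 6 did not pass. The brightest, Ccr9, Bst2 and Ly6d, gave 0.39, 0.31 and -0.39 and were among those that did not pass. The summed signal of the 7 markers ran from 439.8 to 792 in WT and from 590.0 to 806 in Runx3-/- arrays. Jchain and Mzb1 fell among 5 markers of plasma cells. The other 3 did not pass, among them Xbp1 (-0.11), and 1 of the 5 differences was above 0. Of 5 natural killer cell markers, 3 fell, among them Nkg7 and Klrd1, which CD8-TC also express, while Eomes gave -0.56 and did not pass. Of 4 neutrophil markers, Ngp and S100a8 fell, while S100a9 gave -0.63 and did not pass. Slc4a1, Mzb1 and all 4 neutrophil markers tested, among others, reached the array median only in WT arrays, and Gata1 only in Runx3-/- arrays. They thus entered these counts only through the group in which they were higher. The part of these cell types in the members' differences was not tested.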

How the data were processed

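The deposited values were log2 signals. They were made by the authors with Partek software, using RMA with correction for GC content. Software versions and genome build: not given in the sources used here. That the scale is log2 follows from the range of the values, with array medians of 3.45 to 3.53. GEO's platform annotation paired 21789 probe sets with 1 gene symbol, 1621 with several and 11989 with none, and only the first were used. The filter kept genes at or above the array's median in at least 1 array. Differences are Runx3-/- minus WT, tested by limma's two-sided moderated test (lmFit and eBayes without covariates, limma 3.58.1 under R 4.3.3) on 3 against 3 arrays, with Benjamini-Hochberg adjustment over 9924 genes at 0.05. The number of arrays limits the precision. The p-values set a difference against the spread between biological repeats, which limma moderates by that of all tested genes. Scripts were tested on simulated data. Promoters came from RefSeq (GRCm38.p6).

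The members and gene lists were chosen with earlier results of these data known. Genes named were all members, list genes that passed or had the lowest p (at least 3 a list), Foxp3 with the 4 lowest p of its list, the 3 brightest markers of a cell type, and the 3 nearest profiles. Alternatives comprised quantile normalization, centring on T cell markers, other filters, probe set averaging, other variance models, array weights, a replicate block, the methods' thresholds and leaving out each array.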

Additional observations from a re-analysis of the deposited data

How the results depend on the processing

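Other filters, probe set averaging, other variance models, the replicate block and the methods' thresholds leave the Ikzf2 difference at 0.85 by construction. Its direction could change only in the remaining alternatives, and the methods' thresholds use the same fit as the values as deposited. Ikzf2 kept its direction under all 16 alternatives (0.63 to 1.003, and 0.66 to 1.003 with an array left out) and passed in 12. The 4 in which it did not were without moderation of variances (0.85, limma adjusted p = 0.148), with the replicate number as a block (0.85, adjusted p = 0.0543), without WT replicate 1 (0.88) and without Runx3-/- replicate 3 (0.77). The number of members past the threshold was then 0, and 0 to 1 over the 6 fits that left out an array. Same-numbered arrays deviated together with correlations of 0.18, 0.032 and -0.00014, so that the numbers are no evidence of pairing. With the block 1084 genes passed, against 1154 without it. Ikzf1, Ikzf3, Ikzf4 and Ikzf5 did not pass under any alternative, and with arrays centred on T cell markers Ikzf1 (-0.035) and Ikzf5 (-0.062) changed sign. Leaving out an array gave 0.10 to 0.28 for Ikzf1, 0.18 to 0.32 for Ikzf3, 0.21 to 0.33 for Ikzf4 and 0.086 to 0.21 for Ikzf5. Centring on T cell markers gave 167 genes higher and 1524 lower, against 559 and 595 as deposited. Over all genes, 178 passed without moderation of variances and between 619 and 920 with any array left out, the lowest being 619 without WT replicate 1, 621 without Runx3-/- replicate 3 and 631 without Runx3-/- replicate 2. Signals near the array median, such as that of Ikzf4, limit what can be measured.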

Other observations

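Within the WT group, WT replicate 3 had the lowest signal of Ikzf1, Ikzf2, Ikzf3 and Ikzf5 (9.07, 4.44, 8.26 and 7.32). For Ikzf1, Ikzf3 and Ikzf5, Runx3-/- replicate 3 was likewise the lowest of its group (9.21, 8.43 and 7.55), whereas for Ikzf2 it was the highest (5.82).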
